A study of Mus musculus with 15 samples.

Results

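The comparison described here sets the fibroblast source TAF-tib6 against the fibroblast source NSF, the only sources of the series that its labels call sensitive. Its members were chosen by array title, 3 arrays of TAF-tib6 and 3 arrays of NSF, which makes 6 of the 15 arrays of the series, and all genes of these arrays were examined. The other 9 arrays belong to 3 sources labelled resistant, TAF-el4, TAF-tib42 and TAF-tib48. On every array the fibroblast RNA was labelled with Cy5 and was hybridised together with Universal Mouse Reference RNA of Stratagene, a commercial RNA pool, labelled with Cy3. All sources are mouse, and the series title gives tumour-associated fibroblast as the likely reading of TAF. The labels give no strain, genotype, sex, age, treatment or passage for any source, and they do not expand NSF or tib6. Nor do they state if each array had its own culture or animal, so the p-values rest on array-to-array spread that can be technical in origin.

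Fibroblasts are the mesenchymal cells that make and remodel collagen-rich matrix, and in tumours they also release growth factors and cytokines that act on blood vessels, immune cells and cancer cells. VEGF-A is the main growth factor for new blood vessels, and antibodies against it are used to slow tumour growth. The title of the series refers to tumours that withstand such treatment, while TAF-tib6 and NSF are labelled sensitive. Because TAF-tib6 and NSF carry the same response label, their comparison asks how much a tumour-associated source can differ from NSF without a difference in that label.

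Values are log2 ratios of the fibroblast RNA to the reference RNA, so that 0 stands for equal signal, and a difference is TAF-tib6 minus NSF on the log2 scale. A gene was called at a Benjamini-Hochberg adjusted p under 0.05 from limma, fitted on all 15 arrays and 31188 genes. Median Cy5 intensity lay between 194 and 219.7 on the TAF-tib6 arrays and between 195.1 and 267 on the NSF arrays, over background medians of 52 to 56. The slides fall into 3 runs of consecutive barcodes, called slide packs here. All TAF-tib6 arrays lie in one pack and all NSF arrays in another, so no pack holds both and pack and source cannot be told apart within these 6 arrays. A fit with pack as a block links them only through TAF-el4 and TAF-tib48, whose arrays span packs. Packs 1 and 2 are joined by TAF-el4 replicate 3 against replicates 1 and 2. Packs 2 and 3 are joined by TAF-tib48 replicate 1 against replicates 2 and 3. The shift between packs thus rests on few arrays of resistant sources, and a call kept or lost in this fit is no verdict on a gene. The results of this fit are given beside those without it. For C3, a complement gene, the SE was 0.47 in that fit and 0.22 without the block. A call can thus be lost there although the difference is no smaller. The NSF arrays were the first 3 scanned and the TAF-tib6 arrays the last 3.

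Both sources carried the transcripts that define fibroblasts. The median log2 ratio of 20 fibroblast markers was 0.819 to 0.933 on the TAF-tib6 arrays and 1.03 to 1.27 on the NSF arrays, that is, above the reference RNA. Of these markers 4 were higher in TAF-tib6 and 7 lower, where 11.3% of all genes tested were called, 4.63% as higher and 6.71% as lower. Among markers of other cell types, 2 of 16 macrophage markers were higher and 2 lower, 3 of 18 lymphocyte markers were higher, and 1 of 14 endothelial markers was lower. The median log2 ratio of the macrophage markers was -0.885 to -0.77 in TAF-tib6 and -0.81 to -0.628 in NSF, and that of the lymphocyte markers -0.0424 to 0.0339 in TAF-tib6 and -0.0373 to -0.00627 in NSF. Of 12 pericyte and smooth muscle markers 4 were lower, led by Mcam, an adhesion molecule of pericytes and other cells, at -1.10 ± 0.09 (SE). The part of other cell types in the results below was not tested, and with bulk RNA a smaller share of a cell type and less RNA per cell cannot be told apart.

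Of the 10 pairs of sources, TAF-tib6 and NSF had the highest correlation and the fewest calls, but not the smallest typical difference. Their mean log2 ratios correlated across genes at 0.9526, against 0.8775 to 0.9228 for the other pairs, and genes are not independent replicates. Arrays correlated at 0.9776 to 0.9826 within TAF-tib6, at 0.9798 to 0.9816 within NSF and at 0.9312 to 0.9487 between them. The calls numbered 3537, with 1443 genes higher and 2094 genes lower in TAF-tib6, and the other pairs had between 4448 and 8165 calls. The median absolute difference over all genes was 0.0624, against 0.0535 for TAF-el4 with NSF and 0.0592 for TAF-tib42 with TAF-tib48. Both of those pairs have arrays in a common slide pack, whereas TAF-tib6 and NSF do not. The median size over called genes was 0.24, with a smallest called difference of 0.117, against a median SD between arrays of 0.0531 in TAF-tib6 and 0.0493 in NSF. A difference of at least 2-fold was found for 83 called genes (0.266% of those tested), 24 higher (0.077%) and 59 lower (0.189%), against 147 to 301 in the other pairs. The block for slide pack left 422 calls (1.35%), 111 genes higher and 311 genes lower, of which 382 were among the 3537, and 72 of the 83 genes kept their call while all 83 kept their direction. The arrays of the sources did not overlap for 31.1% of all genes tested, so that separation of the arrays alone says little about a gene.

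The gene with the largest difference was Ifi202b, an interferon-inducible protein of the p200 family that binds DNA. Its log2 ratios were -0.32, -0.36 and -0.24 on the TAF-tib6 arrays, against -5.17, -5.21 and -5.04 on the NSF arrays. The difference of 4.83 ± 0.09 (SE) is 28.5-fold, with an adjusted p of 1.63e-16 from limma. Its Cy5 signal averaged 11.24 on the log2 scale in TAF-tib6 and 6.39 in NSF, where it was still marked well above background on all 3 arrays. The difference was 4.5 to 5.8 over the other ways of normalising, and 4.23 with slide pack as a block.

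Several of the other genes that were higher in TAF-tib6 encode secreted or matrix proteins. Dkk2, a secreted protein that binds Wnt co-receptors, had log2 ratios of 3.12, 3.39 and 3.37 in TAF-tib6, against 1.52, 1.5 and 1.41 in NSF (3.52-fold, adjusted p = 1.20e-11). Rspo2, a secreted enhancer of Wnt signalling, stood at 2.44, 2.51 and 2.46 in TAF-tib6, against 0.73, 0.71 and 0.77 in NSF (3.32-fold, adjusted p = 7.57e-13). For Lpl, the lipase that releases fatty acids from lipoproteins, the ratios were 3.55, 3.41 and 3.54 in TAF-tib6 and 1.47, 1.62 and 1.70 in NSF (3.74-fold, adjusted p = 2.00e-08). All 3 genes were above the reference RNA in both sources, and no array of one source reached the range of the other. Postn, which encodes the matrix protein periostin, had 5.2, 5.05 and 5.03 in TAF-tib6, against 3.98, 3.61 and 3.79 in NSF (2.46-fold, adjusted p = 9.47e-10). Pdgfrl, a receptor-like relative of the PDGF receptors without a kinase domain, had -0.49, -0.31 and -0.59 in TAF-tib6, against -2.20, -2.19 and -2.30 in NSF (3.39-fold, adjusted p = 3.71e-10).

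The remaining genes of the 15 with the largest called rise were 2.43-fold to 3.76-fold higher. Brinp3, known from neural tissue, rose by 1.91, the largest rise of a named gene after that of Ifi202b, and Glipr1, of the CAP protein family, by 1.64. C1qtnf12, the secreted adipokine adipolin, rose by 1.5, Ocel1 by 1.33, Greb1, an oestrogen-responsive gene, by 1.32, and Gcnt1, a glycosyltransferase of mucin-type glycans, by 1.28. The matricellular protein gene Ccn3 rose by 1.54 and the proteoglycan gene Ogn by 1.28, but with slide pack as a block the calls were lost, at an adjusted p of 0.0983 for Ccn3 and 0.194 for Ogn. Gjb2, which encodes connexin 26, rose by 1.42 on its brightest probe, whereas a second probe that was well above background on all 6 arrays differed by 0.01. The 2 dimmer probes of Gcnt1 differed by 0.12 and 0.10.

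**Figure D1:**
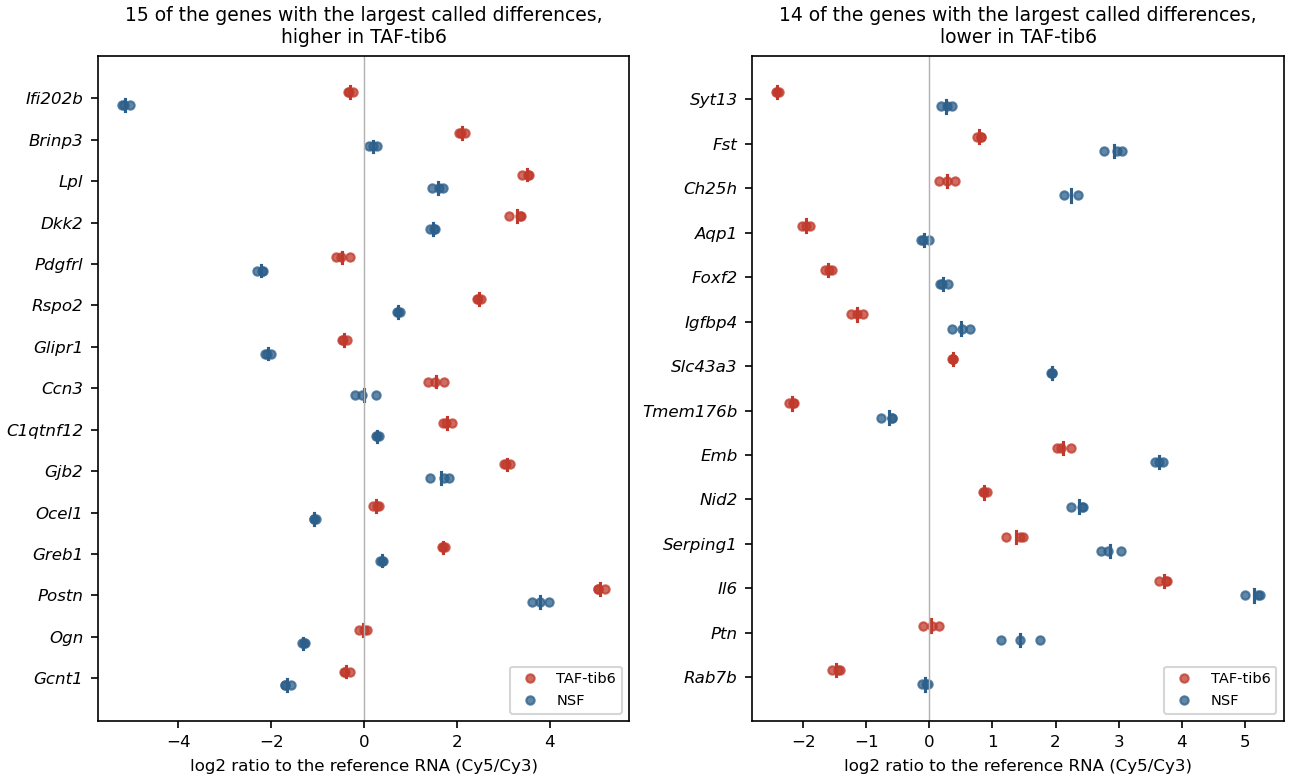
Log2 ratio to the reference RNA (x axis) on each of the 3 TAF-tib6 arrays (red) and 3 NSF arrays (blue) for the 15 genes with the largest called rise (left panel) and 14 of those with the largest called fall (right panel), with a vertical stroke at each mean. No array of TAF-tib6 lies within the range of the NSF arrays for any of the 29 genes, and Ch25h has 2 NSF arrays because a spot was left out.

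Among the genes that were lower in TAF-tib6, a transcription factor and secreted regulators stood near the top. Foxf2, a forkhead transcription factor of mesenchyme, had log2 ratios of -1.59, -1.54 and -1.66 in TAF-tib6, against 0.17, 0.30 and 0.20 in NSF (3.54-fold lower, adjusted p = 1.18e-12). Fst, the secreted activin-binding protein follistatin, stood at 0.76, 0.82 and 0.81 in TAF-tib6, against 2.98, 2.77 and 3.05 in NSF (4.41-fold lower, adjusted p = 2.21e-11). Foxf2 thus lay below the reference RNA on every TAF-tib6 array and above it on every NSF array, while Fst stayed above it in both sources. Igfbp4, a binding protein that sequesters insulin-like growth factors, had -1.15, -1.25 and -1.05 in TAF-tib6, against 0.65, 0.35 and 0.52 in NSF (3.15-fold lower, adjusted p = 4.88e-09).

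Syt13, a member of the synaptotagmin family, had the largest fall on its brightest probe. The probe gave -2.42, -2.39 and -2.42 in TAF-tib6, against 0.35, 0.28 and 0.18 in NSF, a difference of -2.68 ± 0.18 (SE). A second, dimmer Syt13 probe, also well above background on all 6 arrays, differed by 0.13 in the other direction, so that the array gives no single value for this gene. Aqp1, a water channel, fell by 1.88, and Ch25h, the enzyme that makes 25-hydroxycholesterol, by 1.96 with 2 NSF arrays. Slc43a3, a nucleobase transporter, fell by 1.57, Tmem176b by 1.53, the growth factor gene Ptn (pleiotrophin) by 1.41 and the small GTPase gene Rab7b by 1.41. Emb, which encodes a partner of monocarboxylate transporters, fell by 1.52, but the block for slide pack ended its call (adjusted p = 0.0983). Nid2, Serping1 and Il6, also among the genes with the largest fall, are described with their groups.

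The levels in the resistant sources show on which side of each difference the unusual level lay. Of the 24 genes at least 2-fold higher in TAF-tib6, 15 had in TAF-tib6 the highest mean of all 5 sources while the NSF mean lay among the others, 2 had in NSF the lowest mean while TAF-tib6 lay among the others, 5 had both, and 2 had neither. Of the 59 genes at least 2-fold lower, 36 had in NSF the highest mean while TAF-tib6 lay among the others, 8 had in TAF-tib6 the lowest, 12 had both, and 3 had neither. These genes were selected for a wide gap between TAF-tib6 and NSF, which favours outer positions for both sources, and the counts are a description. Postn averaged 5.09 in TAF-tib6, 3.79 in NSF and 3.83 to 3.91 in the resistant sources, so that TAF-tib6 stood apart while NSF was lowest by a narrow margin. Dkk2 averaged 3.29 in TAF-tib6, 1.48 in NSF and 0.56 to 1.40 in the resistant sources. On the other side, Serping1 averaged 1.38 in TAF-tib6, 2.87 in NSF and 0.90 to 1.49 in the resistant sources, and Il6 averaged 3.72 in TAF-tib6, 5.15 in NSF and 1.58 to 4.24 in the resistant sources. C1qtnf12 averaged 1.79 in TAF-tib6, 0.29 in NSF and 1.61 to 1.77 in the resistant sources, so that NSF stood apart. Ifi202b averaged -5.01 in TAF-el4 and -5.02 in TAF-tib42, close to NSF, and -2.38 in TAF-tib48.

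**Figure D2:**
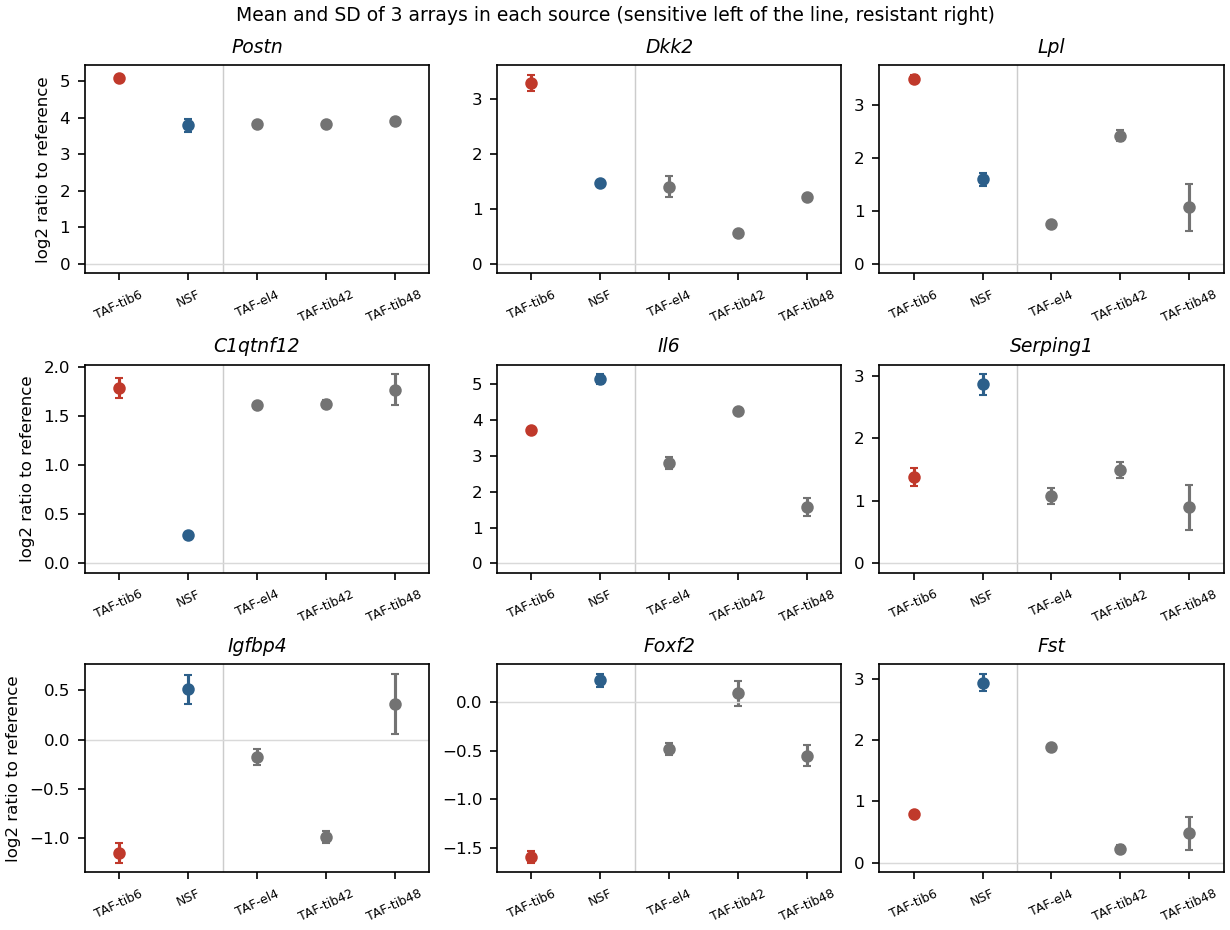
Mean log2 ratio to the reference RNA (y axis) with SD over 3 arrays in each of the 5 sources for 9 of the named genes, with the sensitive sources TAF-tib6 (red) and NSF (blue) left of the grey line and the resistant sources (grey) right of it. Postn, Dkk2 and Lpl are highest in TAF-tib6, C1qtnf12 is lowest in NSF, and Il6, Serping1, Igfbp4, Foxf2 and Fst are highest in NSF. Igfbp4 and Foxf2 are also lowest in TAF-tib6, and for Foxf2 TAF-tib42 (0.09) lies close to NSF (0.23).

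Complement genes were either lower in TAF-tib6 or not called. Complement is a cascade of plasma proteins that tags targets and recruits immune cells, and fibroblasts make several of its parts. Of 21 complement components and inhibitors tested, 12 were lower and none higher, where 6.71% of all genes were lower and 4.63% higher. The median difference of the list was -0.251 against -0.00444 over all genes, and with scaled log ratios 8 were lower. The median log2 ratio of the complement list lay between 0.042 and 0.0538 on the TAF-tib6 arrays and between 0.243 and 0.308 on the NSF arrays. Serping1, the C1 inhibitor, had 1.44, 1.48 and 1.22 in TAF-tib6, against 2.83, 2.73 and 3.04 in NSF (2.80-fold lower, adjusted p = 2.40e-07). Cfb, factor B of the alternative pathway, had 1.0, 1.0 and 0.79 in TAF-tib6, against 2.25, 2.13 and 2.36 in NSF (2.49-fold lower, adjusted p = 2.08e-09). Cd55, a membrane inhibitor of the cascade, had 1.06, 1.23 and 1.22 in TAF-tib6, against 2.15, 1.93 and 2.21 in NSF (1.91-fold lower, adjusted p = 1.38e-08). C3, the central component, fell by 1.28 on its bright probe and differed by -0.12 on a much dimmer one. The falling members thus include both activators and inhibitors. With slide pack as a block the list median was -0.369 and 4 members remained called. C3 was not among them (-1.86 ± 0.47, SE, adjusted p = 0.0725), although its difference was larger than without the block, where the SE was 0.22.

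Several acute phase genes were also lower in TAF-tib6. Acute phase genes are those induced in inflammation by cytokines such as interleukin 6. Of 13 tested, 8 were lower and 1 was higher, where 6.71% of all genes were lower and 4.63% higher. The median of the list was -0.501. With scaled log ratios 3 were lower and 1 was higher, with a median of -0.475. Saa3, a serum amyloid A gene, had 1.96, 1.94 and 2.09 in TAF-tib6, against 2.75, 3.44 and 3.53 in NSF. Saa1 had 1.59, 1.52 and 1.71 in TAF-tib6, against 2.25, 3.07 and 3.00 in NSF. Lcn2, an iron-siderophore binding protein, had -0.46, -0.46 and -0.17 in TAF-tib6, against 0.35, 0.84 and 0.81 in NSF. In all 3 genes NSF replicate 1 was the lowest NSF array and still lay above every TAF-tib6 array. They were 2.38-fold, 2.24-fold and 2.04-fold lower (adjusted p = 0.00296, 2.69e-04 and 1.75e-06), and a second Saa1 probe of low signal differed by -0.07. The exception was Il1rn, the interleukin 1 receptor antagonist, with 1.42, 1.49 and 1.34 in TAF-tib6, against 0.19, 0.12 and 0.11 in NSF (2.42-fold higher, adjusted p = 2.80e-12), although a second probe, well above background on 1 of the NSF arrays, differed by 0.27. In the fit that blocks on slide pack the list median was -0.673, and Lcn2 and Il1rn alone kept their calls.

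Il6, the gene for interleukin 6, had 3.65, 3.74 and 3.77 in TAF-tib6, against 5.0, 5.23 and 5.21 in NSF (2.69-fold lower, adjusted p = 1.45e-08). It was far above the reference RNA in both sources. The block for slide pack left the call in place (-1.12, adjusted p = 0.0194), which was lost when log ratios were scaled to equal spread across arrays (-0.60, adjusted p = 0.226). Il33, an alarmin released from damaged cells, had -2.54, -2.55 and -2.61 in TAF-tib6, against -1.41, -1.40 and -1.48 in NSF (2.20-fold lower, adjusted p = 3.71e-10). Over 25 genes of interleukins, colony-stimulating factors and their receptors, however, the median was -0.0392, with 5 lower and 1 higher. From Cy5 alone the median was 0.0528, with 5 lower and 6 higher. Among all genes 6.71% were lower and 4.63% higher. Of 16 targets and regulators of NF-kappaB, a transcription factor activated in inflammation, 7 were lower and 1 was higher, with a median of -0.178. The count of lower members was 12 with median centring, 7 with scaled log ratios, 5 with the scanner's own ratio and 4 from Cy5 alone. The largest falls in that list were those of the adhesion molecule gene Vcam1 (-0.77), the mitochondrial superoxide dismutase gene Sod2 (-0.67) and Nfkbiz (-0.46), an inhibitor-like regulator of NF-kappaB, which all stayed called with slide pack as a block. Chemokines, which guide leukocytes, moved both ways: of 15 CC chemokines 2 were higher and 4 lower, with a median of -0.0103, and of 18 CXC chemokines and receptors none was higher and 3 were lower. Cxcl1 fell by 0.72, Ccl27a by 0.72 and Ccl20 by 0.50, while Ccl25 rose by 0.26 on its brightest probe and differed by -0.05 on a dimmer one. Cxcl12, a chemokine typical of stromal cells, had 1.68, 1.59 and 1.62 in TAF-tib6, against 1.89, 2.04 and 2.10 in NSF. These arrays did not overlap, but the gene was not called (-0.38 ± 0.17, SE, adjusted p = 0.181). The SE pools the spread of all 5 sources, and the SD of Cxcl12 was 0.05 in TAF-tib6, 0.11 in NSF and 0.60 in TAF-tib48. A second Cxcl12 probe of similar brightness differed by -0.04.

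The bases before the transcription start of Il6 and Fos are shown because Il6 and Fos were among the inflammatory and immediate early genes that were lower, and the kappaB consensus, the motif bound by NF-kappaB, is in capitals. The sequences are from RefSeq on GRCm38.p6, 250 bases each, read on the strand of the gene, and the motif was searched for on both strands.
Il6: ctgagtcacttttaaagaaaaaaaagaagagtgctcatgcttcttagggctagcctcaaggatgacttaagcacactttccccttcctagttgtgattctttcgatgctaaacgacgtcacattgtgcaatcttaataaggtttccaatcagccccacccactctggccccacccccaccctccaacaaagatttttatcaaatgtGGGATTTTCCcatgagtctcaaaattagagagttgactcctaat
Fos: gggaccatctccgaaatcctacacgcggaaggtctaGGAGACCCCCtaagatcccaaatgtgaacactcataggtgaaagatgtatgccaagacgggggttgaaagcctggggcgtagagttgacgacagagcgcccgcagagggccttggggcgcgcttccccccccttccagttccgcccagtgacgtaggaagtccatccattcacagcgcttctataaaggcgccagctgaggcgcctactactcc
The Il6 stretch is chr5:30012864-30013113 on the plus strand, and the Fos stretch is chr12:85473640-85473889 on the plus strand. In Il6 the motif starts 44 bases before the gene start on the gene's own strand, and in Fos it starts 214 bases before it on the opposite strand. The motif occurred before 8.2% of 27025 genes in the table. It occurred in 2 of the 5 genes called lower in the list of cytokines and their receptors, Il6 and the receptor gene Il1r1. The motif also occurred in 3 of the 10 immediate early genes called lower that have an entry. It occurred in 0 of the 8 acute phase genes called lower and in 0 of the 5 complement genes called lower that have an entry. A match is a description of the letters in this window.

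Interferon-induced genes were lower in a minority of cases. Of 38 members of the interferon response list 8 were lower and none higher, with a median of -0.117, where 6.71% of all genes were lower. The count of lower members was 15 with median centring, 2 with scaled log ratios and 4, beside 1 higher, with the scanner's own ratio. The median log2 ratio of the list was -0.0718 to 0.0506 in TAF-tib6 and 0.121 to 0.30 in NSF. Zbp1, a nucleic acid sensor, fell by 0.59, the GTPase genes Iigp1 and Mx2 by 0.57 and 0.56, and Ifit1, an RNA-binding antiviral protein, by 0.55. None of the 38 was called with slide pack as a block, where the median was -0.0525. Within the p200 family the 4.83 of Ifi202b stood beside opposite or small differences: Ifi205 fell by 0.89 on its brightest probe and differed by 0.14 on a dim one, Ifi203 fell by 0.35, while Ifi204 differed by 0.31 on its brightest probe and by -0.65 on another. Genes of this family are close copies of each other, so that probes may share signal. Among 20 genes of MHC class I antigen presentation 3 were lower and 1 was higher. H2-D1, a classical class I heavy chain, had -1.50, -1.47 and -1.53 in TAF-tib6, against -0.83, -0.82 and -0.79 in NSF (1.61-fold lower, adjusted p = 1.15e-07). The higher gene, H2-K1, rose by 0.325 on its brightest probe and differed by -0.40 on another.

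Immediate early genes, which respond within minutes to growth factors or stress, were lower in TAF-tib6 where they were called. Of 26 immediate early and heat shock genes 14 were lower and none higher, with a median of -0.301, where 6.71% of all genes were lower. The median log2 ratio of the list was -0.311 to -0.205 in TAF-tib6 and 0.103 to 0.157 in NSF. Egr1, a zinc finger transcription factor, had -2.21, -1.96 and -1.86 in TAF-tib6, against -0.48, -0.79 and -0.72 in NSF (2.55-fold lower, adjusted p = 1.95e-07). Fos, a subunit of AP-1, had -2.20, -2.16 and -1.80 in TAF-tib6, against -0.67, -0.81 and -1.01 in NSF (2.34-fold lower, adjusted p = 7.52e-07). Nr4a1, an orphan nuclear receptor, had -0.34, -0.37 and 0.18 in TAF-tib6, against 1.05, 0.58 and 0.60 in NSF (1.90-fold lower, adjusted p = 1.60e-04). Fos and Egr1 were below the reference RNA in both sources, and for Nr4a1 TAF-tib6 replicate 3 lay nearer to NSF than its fellow arrays. These genes also respond quickly to the handling of cells, for which the labels give no record. With slide pack as a block 5 of the 14 stayed called, among them Egr1, while the calls of Fos (adjusted p = 0.0828) and Nr4a1 (adjusted p = 0.495) were lost.

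**Figure D3:**
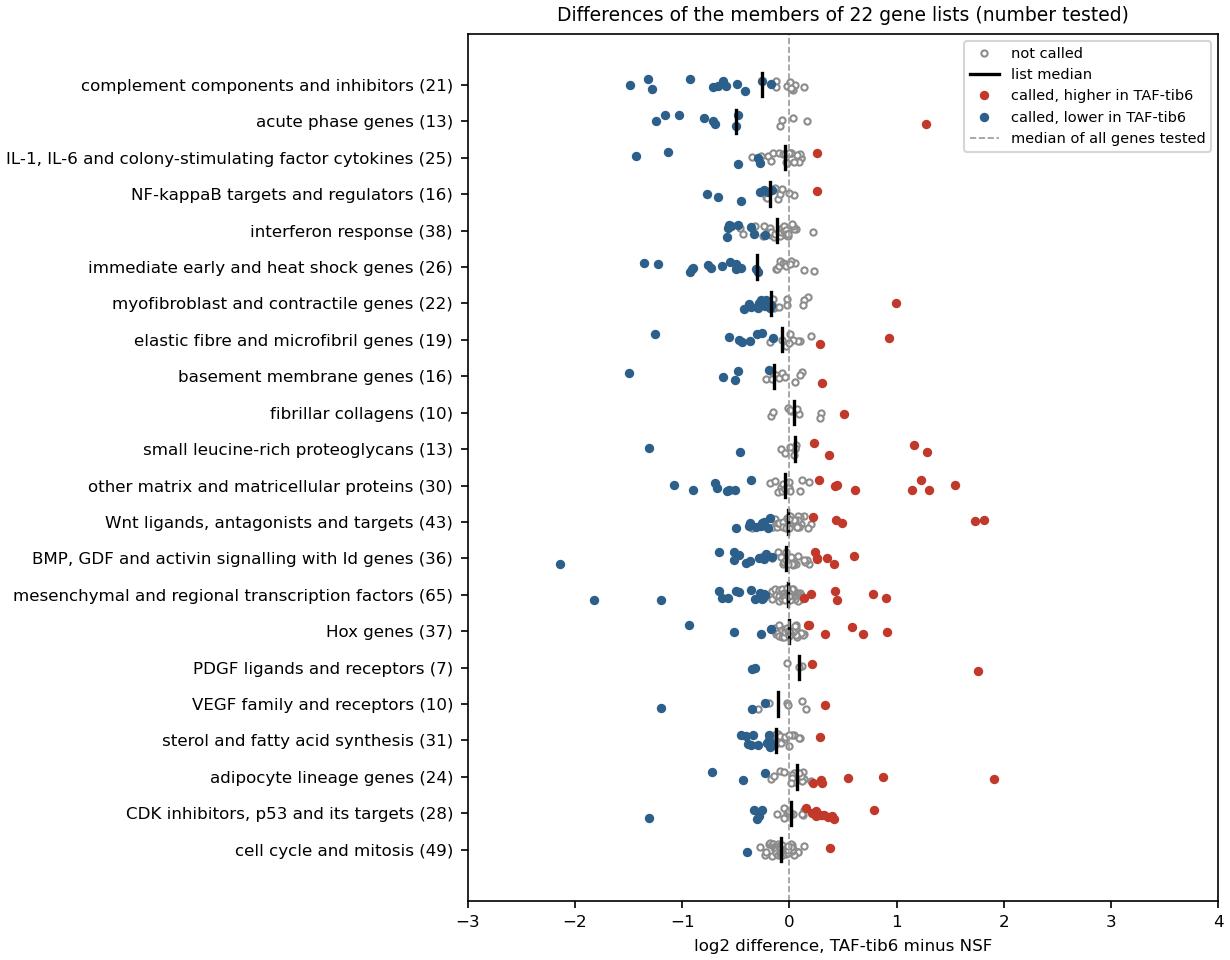
Log2 difference TAF-tib6 minus NSF (x axis) of each tested member of the gene lists named at the left, with the number tested in brackets. Filled points are called (red higher, blue lower), open points are not called, black strokes mark list medians and the dashed line the median of all genes. The lists of complement, acute phase and immediate early genes have medians of -0.251, -0.501 and -0.301.

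Matrix genes moved both ways. Of 10 fibrillar collagen genes, the main fibres of the fibroblast matrix, 1 was called, a share near the 11.3% of all genes. It was Col5a1, which nucleates collagen fibrils, with 3.27, 3.21 and 3.17 in TAF-tib6, against 2.78, 2.62 and 2.71 in NSF (1.43-fold higher, adjusted p = 4.49e-04). Of 26 other collagens 4 were higher and 4 lower (4 and 1 with scaled log ratios). Col8a2 rose by 0.92 and Col6a2, a chain of the microfibrillar collagen VI, by 0.51, whereas the basement membrane collagen Col4a1 fell by 0.69. Of 30 other matrix and matricellular genes 8 were higher and 8 lower (7 and 3 with scaled log ratios). Thbs2, a thrombospondin that restrains vessel growth, had 2.38, 2.30 and 2.29 in TAF-tib6, against 1.04 and 1.15 on the 2 NSF arrays with a value (2.34-fold higher, adjusted p = 1.68e-08). Matn2, a matrilin, rose by 1.15 and fibronectin, Fn1, by 0.61, whereas Spp1, which encodes osteopontin, had -4.38, -4.41 and -4.60 in TAF-tib6, against -3.51, -3.44 and -3.23 in NSF (2.10-fold lower, adjusted p = 2.28e-07). With slide pack as a block 3 of the 30 stayed higher and 3 lower, and Col5a1 was not called.

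Small leucine-rich proteoglycans, which coat collagen fibrils, divided by gene. Of 13, 4 were higher and 2 lower, where 4.63% of all genes were higher and 6.71% lower. Aspn, asporin, had 0.71, 0.96 and 0.78 in TAF-tib6, against -0.29, -0.36 and -0.39 in NSF (2.23-fold higher, adjusted p = 5.45e-10), and its relative Ogn rose by 1.28. Dcn, decorin, had -1.37, -1.24 and -1.33 in TAF-tib6, against -0.33, 0.19 and 0.12 in NSF (2.47-fold lower, adjusted p = 6.06e-06). The block for slide pack ended its call (-1.44, adjusted p = 0.0614), and of this list Aspn alone was then called. Elastic fibre genes included Fbn2, a fibrillin, which rose by 0.93, and Efemp1, a fibulin, which had 1.18, 1.24 and 1.25 in TAF-tib6, against 2.54, 2.39 and 2.49 in NSF (2.38-fold lower, adjusted p = 2.94e-08). Of that list 2 of 19 were higher and 8 lower, with a median of -0.071, and with scaled log ratios 2 were higher and 2 lower, with a median of 0.0168. Nid2, a nidogen that links laminin to collagen IV, had 0.91, 0.86 and 0.84 in TAF-tib6, against 2.25, 2.42 and 2.44 in NSF (2.82-fold lower, adjusted p = 8.60e-09). Of 16 basement membrane genes 5 were lower and 1 was higher (3 and 0 with scaled log ratios).

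Enzymes and receptors of the matrix followed the same pattern of single genes. Adamts15, a protease of proteoglycans, had 0.04, 0.29 and 0.14 in TAF-tib6, against 1.35, 1.24 and 1.39 in NSF (2.25-fold lower, adjusted p = 2.22e-10). Timp3, an inhibitor of such proteases, fell by 0.62. Of 27 proteases and inhibitors 6 were lower and 2 higher (2 and 1 with scaled log ratios), where 6.71% of all genes were lower and 4.63% higher. Plod2, a collagen lysyl hydroxylase, rose by 0.61 and Loxl3, a lysyl oxidase, by 0.39. The integrin chain gene Itga9 fell by 0.99 (adjusted p = 2.17e-11), while Itga11, part of a collagen receptor of fibroblasts, had 5.46, 5.46 and 5.25 in TAF-tib6, against 4.29, 4.31 and 4.58 in NSF (2.0-fold higher, adjusted p = 5.60e-04). Of these genes Adamts15 and Itga9 kept their calls with slide pack as a block, and Timp3, Plod2, Loxl3 and Itga11 did not.

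Contractile genes of the myofibroblast, the activated form of the fibroblast, differed by small amounts. Of 22 tested, 11 were lower and 1, Itga11, was higher, with a median of -0.171, where 6.71% of all genes were lower and 4.63% higher. The smooth muscle myosin gene Myh11 fell by 0.42, and the tropomyosin genes Tpm1 and Tpm4 by 0.37 and 0.35. When log ratios were scaled to equal spread across arrays, 1 member was higher and 1 lower and the median turned to 0.0695. None was called with slide pack as a block. Of 21 genes of TGF-beta signalling, a main inducer of myofibroblasts, 6 were lower and none higher (2 and 1 with scaled log ratios). Among those lower were the receptor gene Tgfbr1 (-0.41) and Smad3 (-0.38), a transducer, whose dimmer probes differed by -0.03 and -0.05. None of the 21 was called with the block.

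Genes of BMP and activin signalling changed at several steps. Of 36 tested, 6 were higher and 12 lower (5 and 5 with scaled log ratios), where 4.63% of all genes were higher and 6.71% lower. The antagonist Fst led with -2.14, and Inhbb, which encodes an activin subunit, had 1.68, 1.72 and 1.54 in TAF-tib6, against 1.04, 1.05 and 1.02 in NSF (1.52-fold higher, adjusted p = 6.28e-06). Id2 and Id1, which are targets of BMP signalling, fell by 0.66 and 0.52. With slide pack as a block 2 members stayed lower, Fst among them, and Inhbb, Id1 and Id2 were not called. Of 43 Wnt genes 5 were higher and 9 lower (5 and 2 with scaled log ratios), with a median of -0.00955. Dkk2 and Rspo2, at 1.82 and 1.73, stood apart from the other 41, of which the receptor gene Fzd2 rose by 0.49 and the ligand gene Wnt4 fell by 0.49, neither called with the block.

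Regional and lineage transcription factors differed in both directions. Of 65 mesenchymal and regional factors 6 were higher and 15 lower (5 and 9 with scaled log ratios), where 4.63% of all genes were higher and 6.71% lower. Besides Foxf2, Meox2, a homeobox factor of the somites, had 0.89, 0.98 and 0.90 in TAF-tib6, against 2.27, 1.99 and 2.11 in NSF (2.29-fold lower, adjusted p = 2.00e-08). Sox9, a factor of cartilage and other progenitors, had 1.71, 1.79 and 1.70 in TAF-tib6, against 0.90, 0.83 and 0.76 in NSF (1.87-fold higher, adjusted p = 2.14e-08). These values are from its brightest probe, while a probe of similar signal differed by 0.74 and a dimmer one by 0.002. The forkhead gene Foxc1 rose by 0.78. All 4 kept their calls with slide pack as a block. Hox genes, which record position along the body axis, had 6 of 37 members higher and 4 lower, with a median of -0.00561. Hoxc9 had 0.86, 0.86 and 0.76 in TAF-tib6, against -0.09, -0.09 and -0.07 in NSF (1.88-fold higher, adjusted p = 4.02e-10), its neighbour Hoxc10 rose by 0.59 and Hoxb9 by 0.68. Hoxd4, a gene of a more anterior domain, had -0.15, -0.09 and -0.12 in TAF-tib6, against 1.13, 0.57 and 0.75 in NSF (1.91-fold lower, adjusted p = 7.98e-07). Of these Hox genes Hoxb9 lost its call with the block (adjusted p = 0.14).

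Axon guidance genes, which also pattern mesenchyme and vessels, had 2 of 46 members higher and 8 lower, where 4.63% of all genes were higher and 6.71% lower. The share of higher members is thus near that of all genes. Efna5, an ephrin, had -1.15, -1.13 and -1.20 in TAF-tib6, against 0.03, -0.07 and -0.07 in NSF (2.18-fold lower, adjusted p = 2.40e-10), although a second probe of similar signal differed by 0.01. Slit3, a secreted guidance cue, had 1.15, 1.25 and 1.09 in TAF-tib6, against 1.98, 1.96 and 2.11 in NSF (1.81-fold lower, adjusted p = 2.47e-05). Both stayed called with slide pack as a block.

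The growth factors that give the series its setting differed modestly, with 1 exception. Vegfa had 0.41, 0.43 and 0.48 in TAF-tib6, against 0.10, 0.11 and 0.12 in NSF (1.26-fold higher, adjusted p = 1.03e-04), and the arrays did not overlap. These values are from its brightest probe, which differed by 0.33. A further Vegfa probe of similar brightness differed by 0.14, and a dimmer one by 0.12. Vegfc, a growth factor mainly for lymphatic vessels, had -0.15, -0.20 and -0.18 in TAF-tib6, against 0.96, 1.05 and 1.05 in NSF (2.29-fold lower, adjusted p = 1.74e-12). Both kept their calls with slide pack as a block, with differences of 0.51 and -1.29. Pdgfc, a ligand of the PDGF receptors, had -0.82, -0.71 and -0.76 in TAF-tib6, against -0.86, -0.79 and -0.91 in NSF, with overlapping arrays and no call (0.09 ± 0.06, SE, adjusted p = 0.395). Pdgfa had 0.57, 0.50 and 0.52 in TAF-tib6, against 0.42, 0.39 and 0.42 in NSF, and was not called either (0.12 ± 0.05, SE, adjusted p = 0.161). The receptor gene Pdgfra fell by 0.34 on its brightest probe, a call that was lost with the block (adjusted p = 0.326), and a dimmer probe differed by -0.06. Mela, an antigen gene of endogenous retroviral origin known from melanoma, lay far below the reference RNA in both sources, at -4.29, -4.25 and -4.19 in TAF-tib6, against -4.50, -4.50 and -4.33 in NSF (adjusted p = 0.105).

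Other growth factor genes also pointed both ways. Hgf, which acts on epithelium and vessels through the Met receptor, had 2.78, 2.85 and 2.56 in TAF-tib6, against 2.16, 1.75 and 2.07 in NSF (1.67-fold higher, adjusted p = 9.62e-05), but was not called with the block (adjusted p = 0.0859). Fgf10, a mesenchymal factor for epithelium, had -0.62, -0.59 and -0.55 in TAF-tib6, against 0.30, 0.22 and 0.21 in NSF (1.78-fold lower, adjusted p = 1.35e-08). Igfbp2 fell by 0.94 beside the 1.66 of Igfbp4, while the ligand gene Igf1 rose by 0.28, which was not called with the block. Egfr, the EGF receptor gene, fell by 0.74 on its brightest probe and differed by 0.01, -0.07 and -0.17 on others. Of 11 genes of this family 4 were lower and none higher, where 6.71% of all genes were lower. Erbb2 and Tgfa, lower by 0.22 and 0.17 on their brightest probes, differed by 0.02 and 0.11 in the other direction on dimmer ones.

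Lipid and retinoid genes differed gene by gene. Of 31 genes of sterol and fatty acid synthesis 11 were lower and 1 was higher, with a median of -0.124, where 6.71% of all genes were lower. The count of lower members was 19 with median centring, 7 with no normexp offset and 5 from Cy5 alone, and none was called with slide pack as a block. Fdps, an enzyme of the mevalonate pathway, had -0.37, -0.34 and -0.38 in TAF-tib6, against 0.04, 0.06 and -0.03 in NSF (1.31-fold lower, adjusted p = 1.38e-05). Of 24 adipocyte lineage genes 6 were higher and 3 lower. Beside Lpl, Agt, angiotensinogen, rose by 0.87 and Fabp4, a fatty acid carrier of adipocytes, by 0.55, while Cebpd, an early regulator of the lineage, fell by 0.72. Of these Lpl alone was called with the block. Aldh1a1, which makes retinoic acid, had 0.34, 0.30 and 0.31 in TAF-tib6, against -0.76, -0.76 and -0.85 in NSF (2.15-fold higher, adjusted p = 7.86e-12). Rdh10, which supplies its substrate, had -0.31, -0.45 and -0.26 in TAF-tib6, against 0.51, 0.56 and 0.60 in NSF (1.86-fold lower, adjusted p = 1.39e-09). Of 21 genes of aldehyde and retinoid metabolism 4 were higher and 9 lower. Prostaglandin genes had 4 of 17 members lower and none higher, led by Ptgs1, a cyclooxygenase, at -0.89.

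Few cell cycle genes were called, 2 of 49 or 4.08%, beside 11.3% of all genes. They were the D-type cyclins, Ccnd2 at 0.38 and Ccnd1 at -0.40, and neither was called with slide pack as a block. Of 28 CDK inhibitors and genes of p53 signalling 10 were higher and 5 lower (5 and 6 with median centring), where 4.63% of all genes were higher and 6.71% lower. Cdkn2a, whose products restrain the cell cycle, had 1.12, 0.94 and 0.91 in TAF-tib6, against 0.05, 0.24 and 0.30 in NSF (1.73-fold higher, adjusted p = 1.39e-04). Perp, a junction protein and p53 target, had -2.67, -2.57 and -2.48 in TAF-tib6, against -1.28, -1.25 and -1.26 in NSF (2.48-fold lower, adjusted p = 1.78e-09). With the block Perp was the one member of this list still called, and Cdkn2a differed by 0.37 (adjusted p = 0.62).

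**Figure D4:**
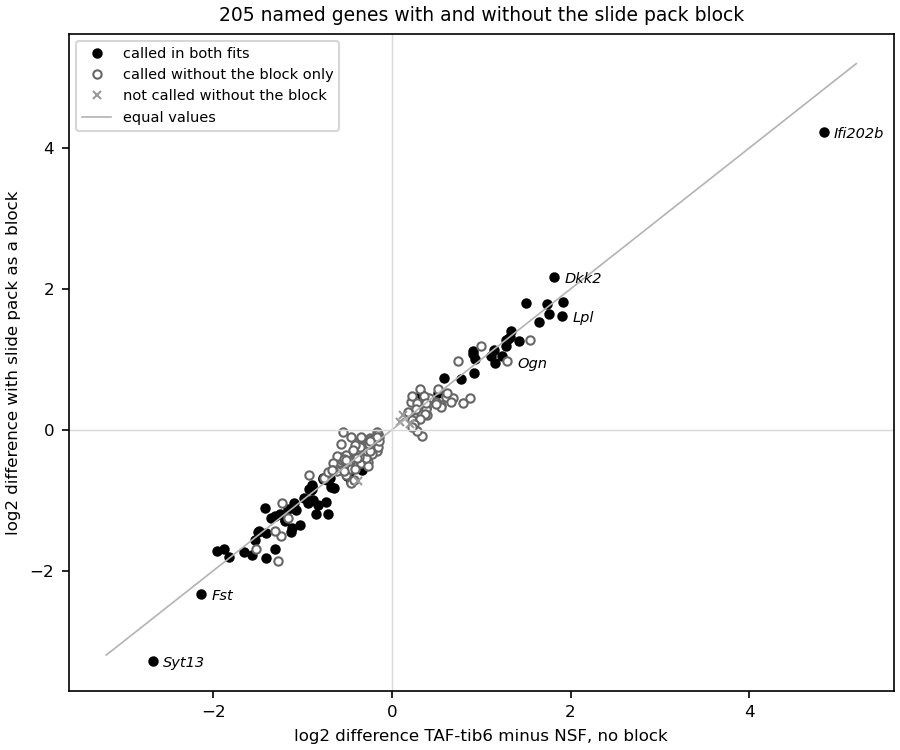
Log2 difference TAF-tib6 minus NSF of 205 named genes without (x axis) and with (y axis) slide pack as a block, where filled points are called in both fits, open points without the block alone and crosses in neither, and the grey line marks equal values. Of 201 genes called without the block 78 stayed called with it. The calls that ended include differences without the block as large as 1.54 (Ccn3) and -1.52 (Emb).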

How the data were processed

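RNA was measured on 15 Agilent 2-colour arrays, 3 per source, of which 6 carry the comparison. Per the file headers, the deposited scanner files hold Cy5 and Cy3 spot intensities with their local background, and the scanner software's log10 ratio. The authors' deposited table holds log2 ratios of Cy5 to Cy3 of the same arrays and served as an alternative. Feature Extraction 8.5.1.1 is the version in the headers and in the submitters' processing notes, while a protocol label has 9.5.

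Background correction (normexp, offset 50) and loess within arrays were run in limma 3.58.1 (R 4.3.3). Control spots had weight 0 and were removed, outlier-flagged spots were left out, and spots of a probe were averaged. Of 41174 probes 22207 were named by accession through a table of assembly GRCm38.p6, 1304 by description or gene name, and 17663 kept their name. The brightest probe stood for a gene, and genes entered the test when at least 1 source had Cy5 signal well above background on its 3 arrays. The limma fit (lmFit, eBayes) used all 15 arrays with a mean per source, two-sided, with Benjamini-Hochberg adjustment, so that all adjusted p-values are limma's. Precision is limited by having 3 arrays per source.

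The arrays, the 56 gene lists and the rule for named genes were chosen with earlier results of these data known. The rule names the 15 highest and 15 lowest called genes with array ranges that do not overlap, up to 4 called members of a list with the largest differences, and Pdgfa, Pdgfc, Vegfa, Cxcl12, Mela and Ifi202b. A gene that this rule names is not reported here. Further probes are given where they differ in sign or by over 1 log2 unit, and for some other genes, such as Vegfa, Cxcl12 and Sox9. A gene described by its brightest probe alone can have further probes with a smaller difference. On simulated data for this comparison (30567 genes) 68%, 98%, 100% and 100% of 50 genes changed 1.2-fold, 1.5-fold, 2-fold and 3-fold were called, with 13 false calls.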

Additional observations from a re-analysis of the deposited data

How the results depend on the processing

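The 3537 calls became 6122 with median centring in place of loess (2013 higher, 4109 lower) and 422 with slide pack as a block, where the share of higher genes was 26.3% in place of 40.8%. They lay between 1656 and 2336 with a replicate of the same number left out of every source, and between 2379 and 3126 with 1 TAF-tib6 or NSF array left out. Under the other alternatives, which were the 6 arrays alone, other background corrections, scaled log ratios, the scanner's ratio, the authors' table, Cy5 alone, other filters, the mean of all probes and another variance model, they lay between 2375 and 4613. The 83 genes changed at least 2-fold became 166 with no normexp offset, 212 with the scanner's own log ratio, 217 with the authors' deposited table and 161 with Cy5 alone, and lay between 67 and 122 under the others. The replicate numbers did not pair the arrays (correlations of deviations -0.0813, 0.0573 and -0.0862 for equal numbers), and a replicate block gave 3273 calls. Scan day as a block was not run because all arrays share 1 day.

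Of the 202 named genes with a call, slide pack as a block ended the call of 123 and scaled log ratios that of 65. The direction turned with scaled log ratios for Pdgfrb (0.21), Igfbp6 (0.035), Ccl2 (0.068), Il1r1 (0.24), Prelp (0.14), Nid1 (0.081), Adamts5 (0.24), Lyz2 (-0.10), Lyz1 (-0.11), Jchain (-0.30), Lmod1 (0.11), Krt8 (-0.53) and Pmp22 (0.0016). It turned with median centring for Tgfa (0.0035), with Cy5 alone for Tgfa (0.24) and S100b (0.029), with the mean of all probes for Ifi204 (-0.033) and H2-K1 (-0.036), and with slide pack as a block for Jchain (-0.092) and Lck (-0.016). The causes were not tested. The median over all genes stayed between -0.0243 and 0.0017 under these alternatives. Signal over background limits dim probes, whose folds the offset of 50 compresses.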

Other observations

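Differences were spread over the genome. The median difference per chromosome lay between -0.0231 (chromosome 16) and 0.00701 (chromosome 15) among the 19 autosomes and X. A search for neighbouring genes was chosen after the data were seen, and the share among all neighbouring pairs was not computed. Over all genes tested 59 were called at least 2-fold lower and 24 higher, so a majority of lower pairs says little about neighbours. In that search 16 pairs of neighbouring protein-coding genes on the array were both called in the same direction by at least 1.5-fold, 15 of them lower in TAF-tib6. They include the complement genes Cfb and C2 on chromosome 17 (-1.31 and -0.59), the related membrane protein genes Tmem176b and Tmem176a on chromosome 6 (-1.53 and -1.03), the paralogues Clca3a1 and Clca3a2 on chromosome 3 (-0.94 and -1.0), and the higher pair Hoxc10 and Hoxc9 on chromosome 15 (0.59 and 0.91). On chromosome 4 Galt, the interleukin 11 receptor gene Il11ra1 and the chemokine gene Ccl27a followed each other (-0.6, -1.3 and -0.72). The pair Rpp25l and Dctn3 (-0.72 and -0.63) lay on the same chromosome. Paralogues can share probe signal, and neighbours by position in the reference table can lie far apart.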
